A study of Mus musculus with 22 samples.

Results

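The genes described here are 37 genes without keratins that stood high in wild-type mouse back skin at postnatal day 14 (P14) and far lower at postnatal day 23 (P23). They were chosen on the wild-type arrays alone: a probe set paired with exactly 1 gene entered if its mean log2 signal was at least 9 in wild-type skin at P14 (a signal of 512) and its mean at P23 lay at least 2.5 below that (5.66-fold). Symbols beginning with Krt, Sprr, Padi, Msx, Dlx or Tgm were left out, as were Crym, Dct and Pmel. This gave 41 probe sets of 37 genes, out of 8251 genes with such a probe set, while 40 probe sets of 38 genes met both thresholds and were left out by symbol. Dsc2, Gjb6, S100a3 and Tchh entered with 2 probe sets each, numbered 1 and 2 in the order of their identifiers.

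RNA of whole back skin was measured on 1-colour oligonucleotide arrays at P6, P14 and P23. DN-CLIM mice carry the K14-DN-Clim transgene, a dominant-negative form of the LIM-domain cofactor CLIM under the keratin 14 promoter, which is active in basal keratinocytes. Wild-type littermates carry no transgene, and all mice were of strain CB6F1. Each genotype had 5 arrays at P6 and 3 arrays at each later age, and which mouse gave which array is not stated, so the spread between arrays may be partly technical. P6 and P14 fall in the first hair follicle morphogenesis and P23 in the first telogen, a synchronized cycle according to the study design. The probe set of Ldb1, which encodes a CLIM protein, was higher by 0.30 on the log2 scale in DN-CLIM skin at P6 (SE 0.11, adjusted p = 0.569), and which part of the transcript it reads was not tested. Median log2 signal per array was 7.56 to 7.80, arrays correlated with the others of their group at 0.933 to 0.972, and no 2 arrays held identical values. The number of arrays limits the precision of every value below.

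In a growing follicle, matrix cells at the base of the hair divide and then build the shaft and the inner root sheath, filling with keratins, keratin-associated proteins, trichohyalin and cross-linking enzymes. In telogen the lower follicle has regressed and no shaft is being made. Wnt signalling through LEF1 and the transcription factor FOXN1 are long-known regulators of shaft differentiation, and connexins and desmosomal cadherins join the cells of the epidermis and follicle.

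The same genes were then read in DN-CLIM skin, whose arrays the rule does not use, although the rule itself was proposed with earlier results of these data known. All 41 probe sets fell between P14 and P23 in DN-CLIM skin, by a median of 3.23 on the log2 scale (9.38-fold), with a range from 1.62 for Rps13 to 8.94 for S100a3 probe set 2. Of all 12422 probe sets tested, 18.1% were called lower in that comparison, and 33.3% of the 3245 1-gene probe sets with a wild-type P14 mean of at least 9 were. On every one of the 41, all 3 arrays at P23 lay below all 3 arrays at P14, as they did for 29.2% of all probe sets and 41.6% of those bright ones. In whole skin, fewer cells of a type and less RNA per cell cannot be told apart.

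The wild-type values, which chose the genes and carry no test, had a median P23 minus P14 difference of -3.83 over the 41 probe sets and ran from -9.65 to -2.52. Over all probe sets the median was -0.11 in DN-CLIM skin and -0.04 in wild-type skin. The 40 probe sets left out by symbol, mostly keratins and their partners, had a median of -6.36 in DN-CLIM skin. Signal kept at P23, as a share of the P14 signal, had a median of 10.7% in DN-CLIM skin (0.204% to 32.6%) and 7.01% in wild-type skin (0.124% to 17.4%). Under 5% was kept by 14 of the 41 probe sets in DN-CLIM skin and by 16 in wild-type skin. The rule bounds the fall in wild-type skin alone, which by itself favours deeper falls and smaller shares there. The part of this choice in the gap between genotypes was not tested. The 41 together held 0.131% to 0.151% of an array's summed signal in DN-CLIM skin at P23 and 2.04% to 2.33% at P14. At P23, 29 of the 41 lay below the median probe set of DN-CLIM skin and 31 below that of wild-type skin. The deposited table holds no detection calls, so the size of a fold at such low signals is uncertain in either direction. With 50 added to each signal the rule gave 36 probe sets, 34 of them among the 41.

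**Figure D1:**
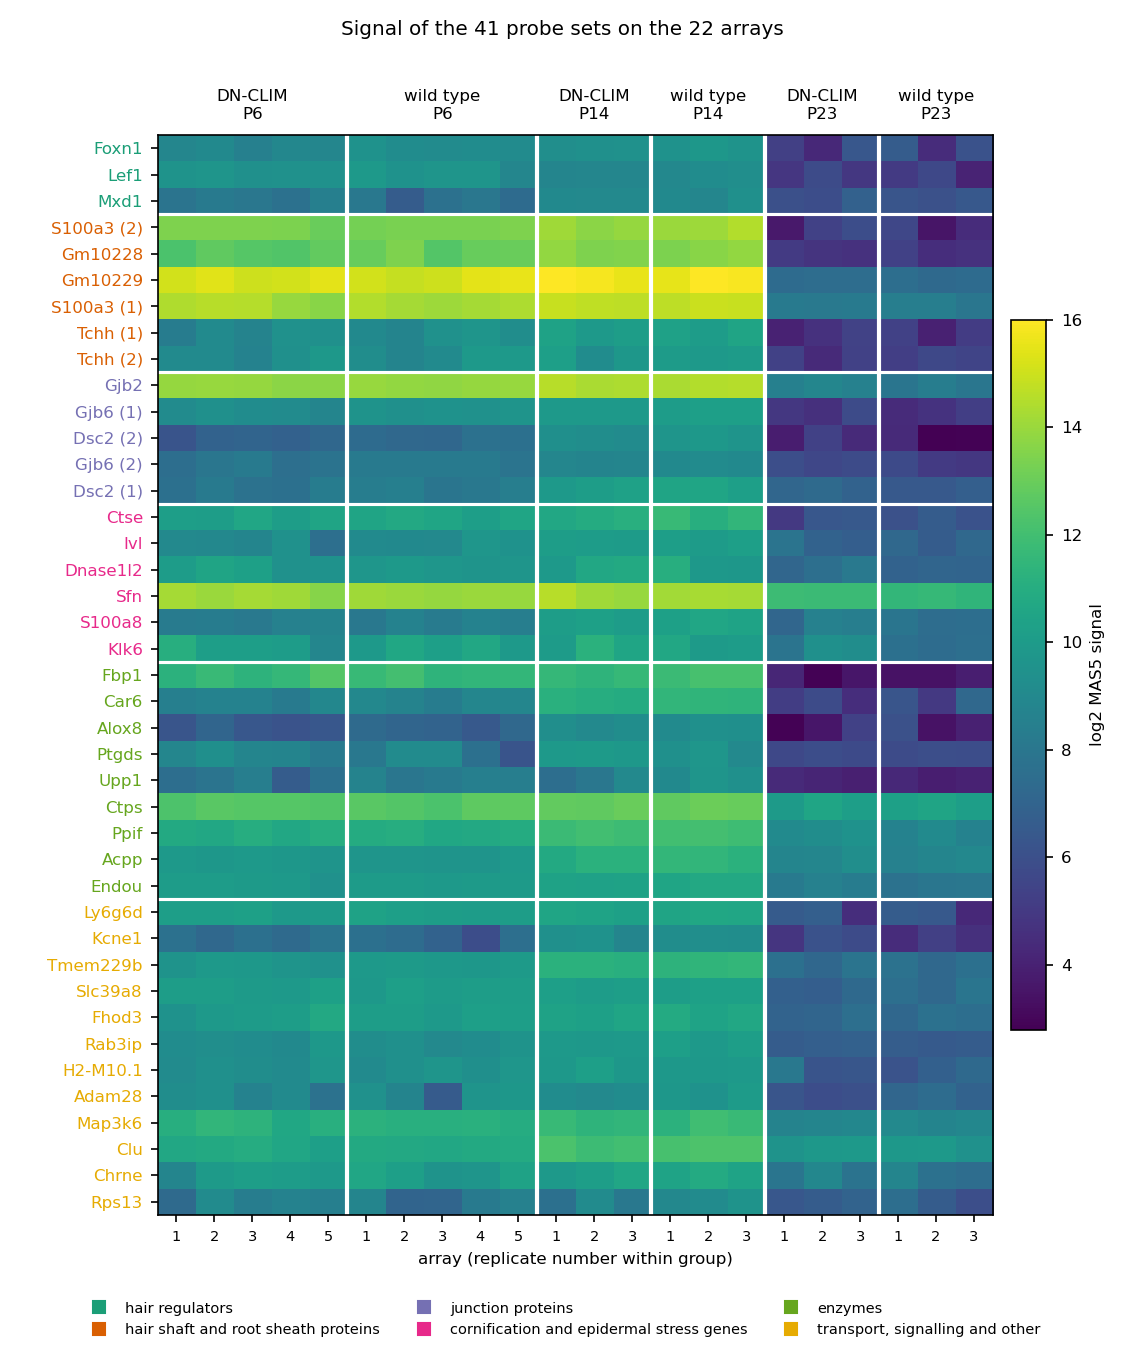
Log2 MAS5 signal of the 41 probe sets (rows, grouped by role, coloured names) on the 22 arrays (columns, by age, DN-CLIM left of wild type). All 41 rows are darker at P23 than at P14 in both genotypes, and Gm10229, for example, averaged 7.47 at P23 against 15.80 at P14 in DN-CLIM skin.

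The probe sets nearest the limits show how sharp the choice is. Just inside the limit on the fall stood Rps13 (-2.52), Clu (-2.55) and Ctps (-2.57) in wild-type skin, and just outside it Rnf149 (-2.4984), Trpm1 (-2.46) and a second probe set of Clu (-2.39). Just inside the limit on the level were Gjb6 probe set 2 (9.08), Mxd1 (9.10) and Lef1 (9.15), and just outside it Mycn (8.99962), Mdfi (8.95) and Mybl2 (8.90).

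Of the hair shaft and root sheath proteins, 6 of 6 probe sets were lower in DN-CLIM skin, with a median of -7.46. They are S100a3, a calcium- and zinc-binding protein of the hair cuticle, Tchh, the trichohyalin of inner root sheath and medulla, and a pair of predicted genes, Gm10228 and Gm10229. The predicted genes have no role in the files used here, but they lie on chromosome 16 of GRCm38.p6 at 89040923 to 89041472 and 89015277 to 89015846, 25.1 kb apart, with the keratin-associated protein genes Krtap22-2, Krtap6-1 and Krtap6-5 beside and between them. Array probes for such a family may read more than one of its members, so their values are uncertain as to the gene. The RefSeq promoters of these genes follow (GRCm38.p6, 250 bases before to 50 after the start, 5′ to 3′ on the gene's strand), because these genes include neighbours of a known hair gene family. Capitals mark 3 motifs on either strand, the TATA box (TATAAA), the CCAAT box (CCAAT) and the core of the TCF/LEF motif (CTTTGA). For S100a3 the 1 of 4 annotated starts with a TATA box is given. They lie, in order, at chr16:89041423-89041722 (minus), chr16:89015027-89015326 (plus), chr3:90588313-90588612 (plus) and chr3:93442080-93442379 (plus).
Gm10228: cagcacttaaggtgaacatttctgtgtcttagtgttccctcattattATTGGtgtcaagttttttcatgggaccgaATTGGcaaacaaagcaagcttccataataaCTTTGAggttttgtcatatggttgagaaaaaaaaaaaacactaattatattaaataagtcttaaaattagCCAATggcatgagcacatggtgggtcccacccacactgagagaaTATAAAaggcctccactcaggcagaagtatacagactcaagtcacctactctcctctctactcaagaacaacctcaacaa
Gm10229: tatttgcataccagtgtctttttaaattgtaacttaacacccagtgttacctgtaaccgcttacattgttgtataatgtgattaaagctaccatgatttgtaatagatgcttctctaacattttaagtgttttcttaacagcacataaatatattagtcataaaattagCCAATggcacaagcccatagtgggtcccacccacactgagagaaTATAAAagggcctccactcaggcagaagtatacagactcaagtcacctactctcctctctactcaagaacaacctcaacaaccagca
S100a3: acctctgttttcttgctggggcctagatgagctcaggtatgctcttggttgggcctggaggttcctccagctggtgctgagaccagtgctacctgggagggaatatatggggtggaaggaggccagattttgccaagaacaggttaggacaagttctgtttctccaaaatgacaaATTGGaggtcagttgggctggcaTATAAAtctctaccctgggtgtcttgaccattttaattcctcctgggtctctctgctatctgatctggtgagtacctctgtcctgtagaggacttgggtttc
Tchh: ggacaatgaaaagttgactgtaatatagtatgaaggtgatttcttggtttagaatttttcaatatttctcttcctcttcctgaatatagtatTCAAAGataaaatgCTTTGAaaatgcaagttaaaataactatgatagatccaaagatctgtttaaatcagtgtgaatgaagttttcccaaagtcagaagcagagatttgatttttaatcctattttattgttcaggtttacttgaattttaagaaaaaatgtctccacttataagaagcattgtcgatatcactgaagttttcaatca

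The Gm10228 and Gm10229 promoters share an unbroken run of 73 bases. Each holds TATAAA, 30 and 37 bases before the start, and CCAAT on the gene's strand, 74 and 81 bases before it. The S100a3 start shown has TATAAA 52 bases before it, and Tchh has CTTTGA once on each strand, 158 and 144 bases before the start, and no TATAAA in the window. RefSeq promoters were found for 30 of the 37 genes. TATAAA on either strand occurred in 7 of the 30 (23.3%), namely Gm10228, Gm10229, Ivl, Lef1, S100a3, S100a8 and Tmem229b. It occurred in 21 of 27 genes left out by symbol (77.8%) and in 12.2% of the 6572 array genes with a promoter. CTTTGA occurred in 30% of the 30 genes against 15.5% of array genes, CCAAT in 40% against 42.5%, and GACGC, a core bound by FOXN1-type factors, in 26.7% against 46.1%. A gene counted if any of its annotated promoters held the motif, and the sets differ in promoters per gene. The 30 genes had 44 promoters, the 27 left out by symbol had 27, the 6572 array genes had 8408 and the 27025 genes had 32851. These are matches of letters and not sites of binding.

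S100a3 probe set 2 read 3.68, 5.33 and 5.91 in DN-CLIM skin at P23, against 14.14, 13.69 and 13.89 at P14. Probe set 1 read 8.23, 8.10 and 8.19 at P23, against 14.91, 14.73 and 14.66 at P14. The age groups are far apart on both, though the probe sets differ in depth, with a fall of 8.94 (SE 0.41, adjusted p = 1.07e-13) on probe set 2 and 6.59 (SE 0.19, adjusted p = 9.55e-18) on probe set 1. Gm10228 averaged 4.81 ± 0.19 in DN-CLIM skin at P23 and 13.61 ± 0.22 at P14 (SD, n = 3 each), a fall of 8.80 (SE 0.22). Gm10229 averaged 7.47 ± 0.05 at P23 and 15.80 ± 0.21 at P14 (SD, n = 3 each), a fall of 8.33 (SE 0.17). Among keratin-associated protein genes with a probe set of their own, which the rule left out, 11 of 11 were lower, with a median of -8.50. Tchh fell by 5.45 (SE 0.36) on probe set 1 and by 4.74 (SE 0.33) on probe set 2. A wider list of hair shaft genes other than keratins was mixed. Of 9 measured, 5 of them among the 37 genes, 6 were lower, 1 was higher and 2 did not pass, with a median of -2.98. The 5 chosen for their fall in wild-type skin were all lower. Of the rest only Mt4 was lower, by 1.84 (SE 0.17). Calm4, a calmodulin-like protein, rose by 1.12 (SE 0.11), while Selenbp1 differed by 0.83 (adjusted p = 0.071) and Lap3 by 0.55 (adjusted p = 0.299).

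Grouped here as hair regulators were Foxn1, the gene mutated in nude mice, Lef1, the DNA-binding partner of beta-catenin, and Mxd1, a general antagonist of MYC. Foxn1 read 5.28, 4.29 and 6.38 in DN-CLIM skin at P23, against 9.32, 9.44 and 9.46 at P14. The P23 arrays scatter far more than the P14 arrays do, but no array of one age reaches the other, and the fall was 4.09 (SE 0.41, adjusted p = 6.38e-08). Lef1 read 4.89, 5.82 and 4.91 at P23, against 8.81, 8.85 and 8.85 at P14, a fall of 3.63 (SE 0.30). A second Lef1 probe set, which the rule did not choose, fell by 1.37 (SE 0.13, adjusted p = 2.80e-08). Mxd1 fell by 2.77 (SE 0.31). A wider list of hair regulators holds Foxn1 and Lef1 but not Mxd1. In it 25 of 44 measured genes were lower, 4 were higher and 15 did not pass, with a median of -0.49. Among those that fell, Shh, the hedgehog ligand of the hair matrix, did so by 1.40 (SE 0.32) and Gli1, a target of hedgehog signalling, by 1.73 (SE 0.21). Runx1 fell by 1.17 (SE 0.38) and Ptch1 by only 0.45 (SE 0.14).

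Junction proteins were lower on 5 of 5 probe sets, with a median of -4.75. Gjb2 and Gjb6 encode the gap junction proteins connexin 26 and connexin 30, and Dsc2 the desmosomal cadherin desmocollin 2. Gjb2 read 8.55, 8.83 and 8.60 in DN-CLIM skin at P23, against 14.58, 14.31 and 14.37 at P14. It had the smallest standard error of the 41, with a fall of 5.76 (SE 0.12, adjusted p = 5.27e-20), or 54.2-fold. Gjb6, whose gene lies 18.6 kb from Gjb2 on chromosome 14, fell by 4.79 (SE 0.23) on probe set 1 and by 3.02 (SE 0.22) on probe set 2. Dsc2 fell by 4.75 (SE 0.38) on probe set 2 and by 2.98 (SE 0.21) on probe set 1.

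Genes of cornification and epidermal stress were lower on 6 of 6 probe sets, with the smallest median of the 6 role groups, -2.64. Ctse, the aspartic protease cathepsin E, read 5.00, 6.36 and 6.45 at P23, against 10.73, 10.93 and 11.13 at P14. Its fall was 4.99 (SE 0.27, adjusted p = 3.52e-12), while the other 2 probe sets of Ctse moved by -0.57 and -0.27 and did not pass. Ivl, the cornified envelope protein involucrin, fell by 2.91 (SE 0.34), Dnase1l2, a nuclease of cornifying cells, by 2.86 (SE 0.31), and Sfn, 14-3-3 sigma, by 2.42 (SE 0.14). S100a8, a subunit of calprotectin, fell by 2.09 (SE 0.26) and Klk6, a secreted serine protease, by 1.76 (SE 0.43). S100a3, S100a8, Ivl and Tchh lie within 2.89 Mb of chromosome 3 (90560356 to 93449077 in GRCm38.p6). Ivl also belongs to a list of epidermal differentiation genes, of which 9 of 16 measured were higher at P23 than at P14 in DN-CLIM skin and 5 were lower, Ivl among these (18.1% of all probe sets were higher and 18.1% lower).

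Enzymes were lower on 9 of 9 probe sets, with a median of -4.05. Fbp1, fructose-1,6-bisphosphatase of gluconeogenesis, read 4.18, 2.86 and 3.58 in DN-CLIM skin at P23, against 11.58, 11.37 and 11.63 at P14. That is a fall of 7.99 (SE 0.28, adjusted p = 6.25e-16). Its P23 mean of 3.54 stood at percentile 9.17 of all probe sets, near the lower end of the scale. Car6, a secreted carbonic anhydrase, fell by 5.86 (SE 0.37) and Alox8, an arachidonate 8-lipoxygenase, by 5.28 (SE 0.55). Ptgds, which makes prostaglandin D, fell by 4.12 (SE 0.48), and its other 2 probe sets fell by 2.75 and 0.74. Upp1, uridine phosphorylase, fell by 4.05 (SE 0.37), Ctps, CTP synthase, by 2.64 (SE 0.14), and Ppif, the mitochondrial cyclophilin D, by 2.57 (SE 0.14). Acpp, an acid phosphatase, fell by 2.08 (SE 0.15) and Endou, an endoribonuclease, by 2.01 (SE 0.14).

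The remaining 12 genes serve transport, signalling and other roles, and 12 of 12 were lower, with a median of -3.12. Ly6g6d, a GPI-anchored protein of the Ly6 family, read 6.58, 6.77 and 4.54 in DN-CLIM skin at P23, against 10.55, 10.43 and 10.30 at P14, a fall of 4.47 (SE 0.47, adjusted p = 1.16e-07). Array 3 at P23 is the low one. Kcne1, a potassium channel subunit, fell by 3.65 (SE 0.39), Tmem229b, a membrane protein, by 3.62 (SE 0.16) and Slc39a8, a zinc transporter, by 3.23 (SE 0.16). Fhod3, an actin-nucleating formin, fell by 3.19 (SE 0.22), Rab3ip, an exchange factor for RAB8, by 3.14 (SE 0.17), and Adam28, a membrane metalloprotease, by 3.08 (SE 0.54). H2-M10.1, a class I-like histocompatibility gene, fell by 3.09 (SE 0.35), Map3k6, a kinase, by 2.71 (SE 0.17), Clu, the secreted chaperone clusterin, by 2.27 (SE 0.15), and Chrne, an acetylcholine receptor subunit, by 1.99 (SE 0.36). Rps13, a protein of the small ribosomal subunit, read 6.38, 6.65 and 7.01 at P23, against 7.67, 9.15 and 8.08 at P14. Its fall of 1.62 (SE 0.49, adjusted p = 0.0133) was the least certain of the 41, with an adjusted p of 0.092 without DN-CLIM P14 array 2 and 0.052 without DN-CLIM P23 array 1. Among 33 ribosomal protein genes 24 were lower and 3 higher, with a median of -0.88.

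**Figure D2:**
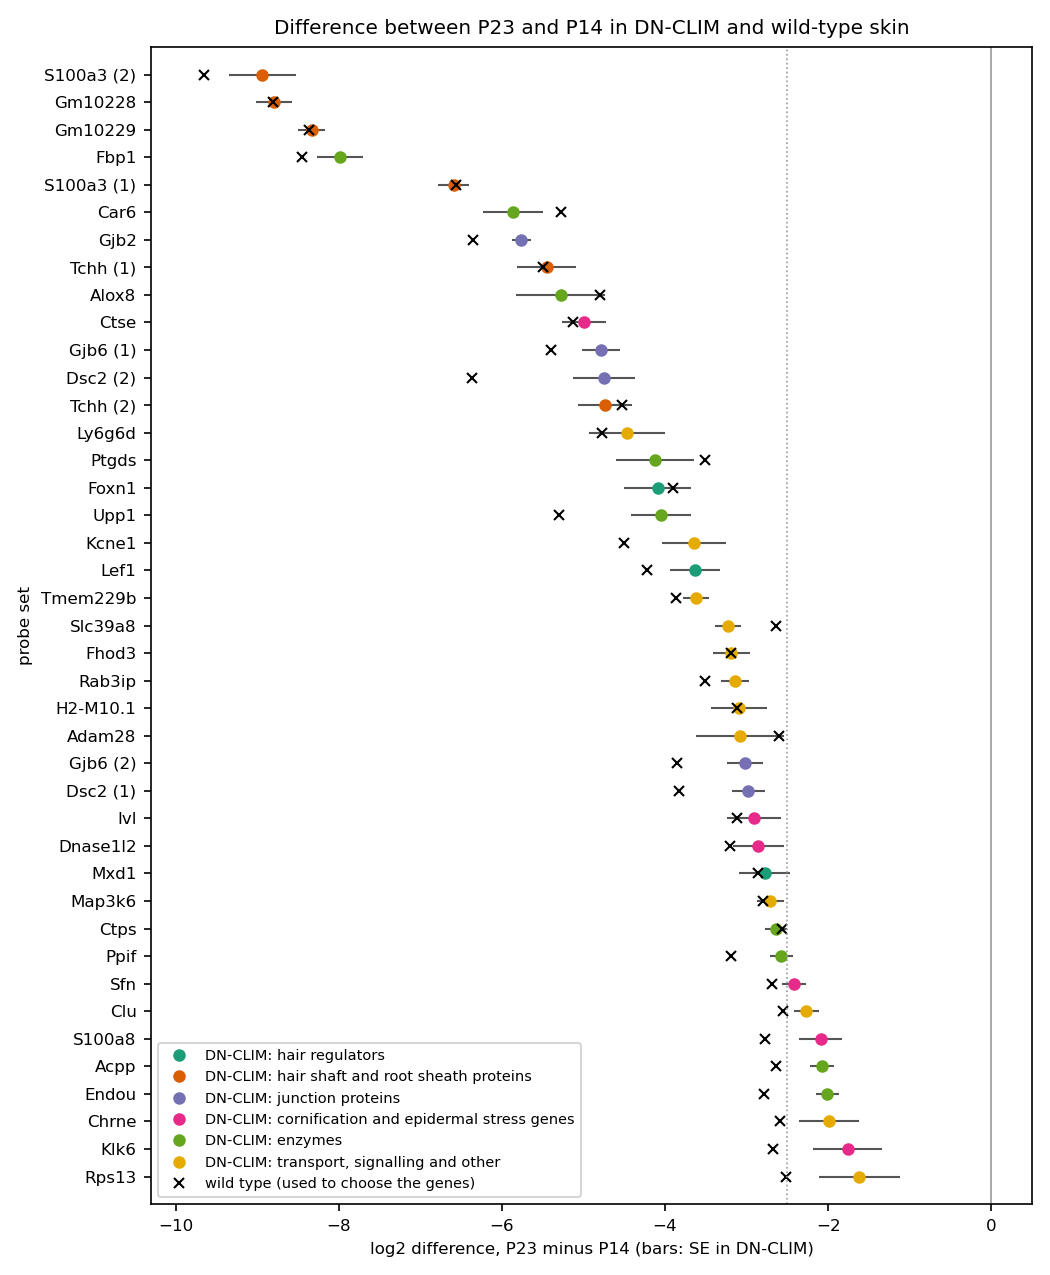
Difference in log2 signal between P23 and P14 for the 41 probe sets, in DN-CLIM skin (dots with SE, coloured by role) and in wild-type skin (crosses, used to choose the genes). The dotted line marks -2.5, the wild-type limit of the rule; 8 DN-CLIM estimates lie closer to 0 than it, ending with Rps13 at -1.62.

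Other lists moved over the same interval in DN-CLIM skin, where 18.1% of all probe sets were higher at P23 and 18.1% lower. Hair shaft keratins were lower in 10 of 10 genes (median -5.98), with a summed log2 signal of 11.62 to 11.65 at P23 against 17.58 to 17.84 at P14. Cell cycle genes were lower in 37 of 51 and higher in 1 (median -1.04), with sums of 13.99 to 14.12 against 14.96 to 15.05, and melanocyte genes were lower in 8 of 11. Skeletal muscle genes were higher in 23 of 40 and lower in 3 (median 1.53), with sums of 17.16 to 17.26 at P23 against 15.47 to 15.94 at P14, and the lowest marker means were 2.95 for Ankrd1 at P23 and 2.17 for Myl3 at P14. Macrophage genes were higher in 15 of 17, adipocyte genes in 8 of 11 and dermal matrix genes in 19 of 28. The part of these shifts in the falls above was not tested.

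Of the 37 genes, 10 have a further probe set on the array that the rule did not choose, 14 probe sets in all. In DN-CLIM skin 4 of the 14, of Clu, Lef1 and Ptgds, fell between P14 and P23, none rose and 10 did not pass. The second Clu probe set fell by 2.24 (SE 0.16), close to the 2.27 of the chosen one. The other Upp1 probe set moved by -0.34 (adjusted p = 0.063) against the fall of 4.05 of the chosen one. For Rab3ip the pair was -0.36 and a fall of 3.14, and the third Tchh probe set moved by -0.00 with an SE of 0.67. Others that did not pass had larger estimates with wide errors: the third Gjb6 probe set moved by -2.08 (SE 1.13), one of H2-M10.1 by -1.53 (SE 0.84) and one of Chrne by -1.37 (SE 0.69). Their mean signals over all arrays stood at percentiles 2.01, 21.1 and 34.5 of the array. Low signal was not common to all that did not pass. The other Ctse probe sets stood at percentiles 77.4 and 81.8, against 77.8 for the chosen one. The other Upp1 probe set stood at 76.2, against 43.3 for the chosen one. Those of Chrne, Gjb6, H2-M10.1, Rab3ip and Tchh that did not pass were dimmer than the chosen ones. For Ctse, Upp1, Rab3ip, H2-M10.1 and Chrne 1 probe set each passed the test, and the others of these genes did not, which does not show that they stayed level.

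**Figure D3:**
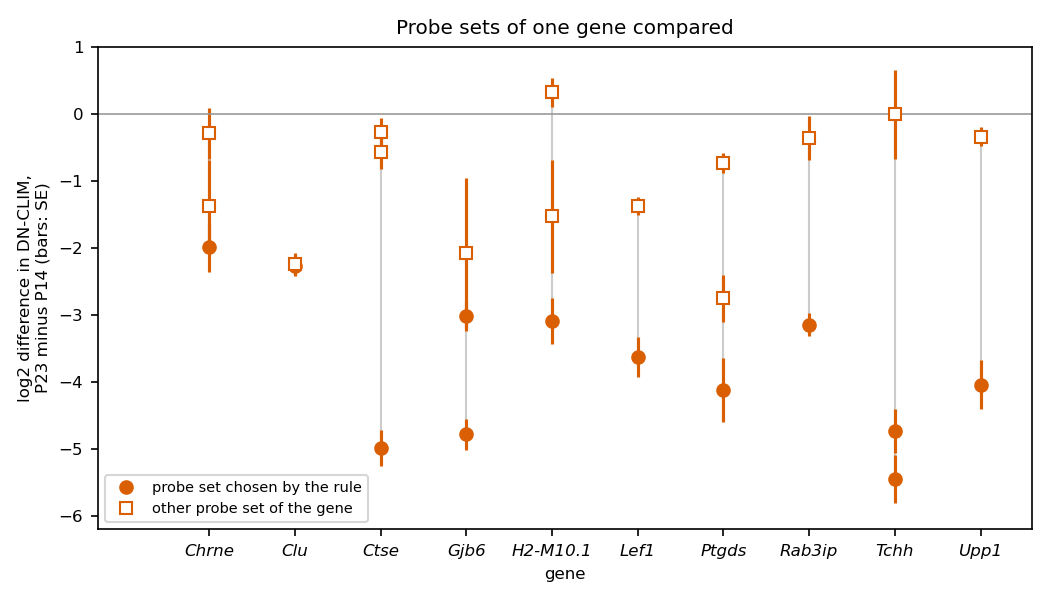
Difference between P23 and P14 in DN-CLIM skin (log2, SE as bars) for the 10 genes with probe sets inside (filled) and outside (open squares) the choice. The Clu probe sets lie together near -2.3, while for Ctse, Rab3ip and Upp1 the open squares lie between -0.57 and -0.27 and the filled points below -3.

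Many of the genes rose between P6 and P14. In DN-CLIM skin 22 of the 41 probe sets, of 20 genes, rose between P6 and P14, none fell and 19 did not pass. The background was 7.5% of all probe sets higher and 7.56% lower. The rule asked for a high wild-type signal at P14, which can favour such rises. The share among probe sets that bright was not computed for P14 or P23 against P6. All 3 arrays at P14 lay above all 5 at P6 for 27 probe sets (11.1% of all probe sets) and below them for 1, Lef1 (8.15% of all). The median difference was 0.59, against 0.12 over all probe sets, which becomes 0.00 with quantile normalization, where 21 of the 41 rose. At P6 DN-CLIM skin held a median 66.4% of the P14 signal (14.9% to 160%).

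Junction proteins rose on 5 of 5 probe sets between P6 and P14, enzymes on 6 of 9, shaft and sheath proteins on 4 of 6, genes of transport, signalling and other roles on 4 of 12, cornification genes on 2 of 6 and regulators on 1 of 3. Alox8 read 9.30, 9.01 and 9.27 in DN-CLIM skin at P14, against 6.27, 7.11, 6.35, 6.14 and 6.35 at P6. The groups are well apart, with a rise of 2.75 (SE 0.49, adjusted p = 5.25e-04), or 6.72-fold. Car6 read 11.18, 11.02 and 10.91 at P14, against 8.51, 8.62, 8.63, 8.19 and 8.90 at P6, a rise of 2.47 (SE 0.33). Dsc2 probe set 2 read 9.35, 9.28 and 9.18 at P14, against 6.21, 6.95, 7.04, 6.88 and 7.21 at P6. Dsc2 rose by 2.41 (SE 0.34) on that probe set and by 2.19 (SE 0.18) on probe set 1, so both probe sets gave a rise of over 4-fold. S100a8 rose by 1.76 (SE 0.24), Kcne1 by 1.66 (SE 0.35), Tmem229b by 1.49 (SE 0.14), Clu by 1.38 (SE 0.13) and Ivl by 1.32 (SE 0.30).

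The 3 lowest estimates of that interval did not pass. Lef1 read 8.81, 8.85 and 8.85 at P14, against 9.55, 9.68, 9.42, 9.48 and 9.46 at P6, a difference of -0.68 (SE 0.27, adjusted p = 0.096). It passed with 50 added to each signal (-0.62, adjusted p = 0.018) and in a fit of these 2 groups alone (adjusted p = 0.008), while the other Lef1 probe set gave -0.09 (adjusted p = 0.666). Fbp1 read 11.58, 11.37 and 11.63 at P14, against 11.29, 11.72, 11.34, 11.57 and 12.48 at P6, a difference of -0.15 (SE 0.25). Rps13 read 7.67, 9.15 and 8.08 at P14, against 7.34, 9.18, 8.37, 8.66 and 8.51 at P6, a difference of -0.11 (SE 0.44). On both genes the groups overlap. Of the 22 rises, 15 held when any single array was left out, and leaving out DN-CLIM P14 array 1, 2 or 3 lowered the count to 16, 18 or 17. The rises lost in at least 1 such fit were those of Ctps, Endou, Gjb6 probe set 1, Gm10229, Mxd1, S100a3 probe set 1 and Tchh probe set 1. That of Rab3ip did not pass in a fit of these 2 groups alone (adjusted p = 0.059) or with P6 arrays 4 and 5 alone (adjusted p = 0.142).

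**Figure D4:**
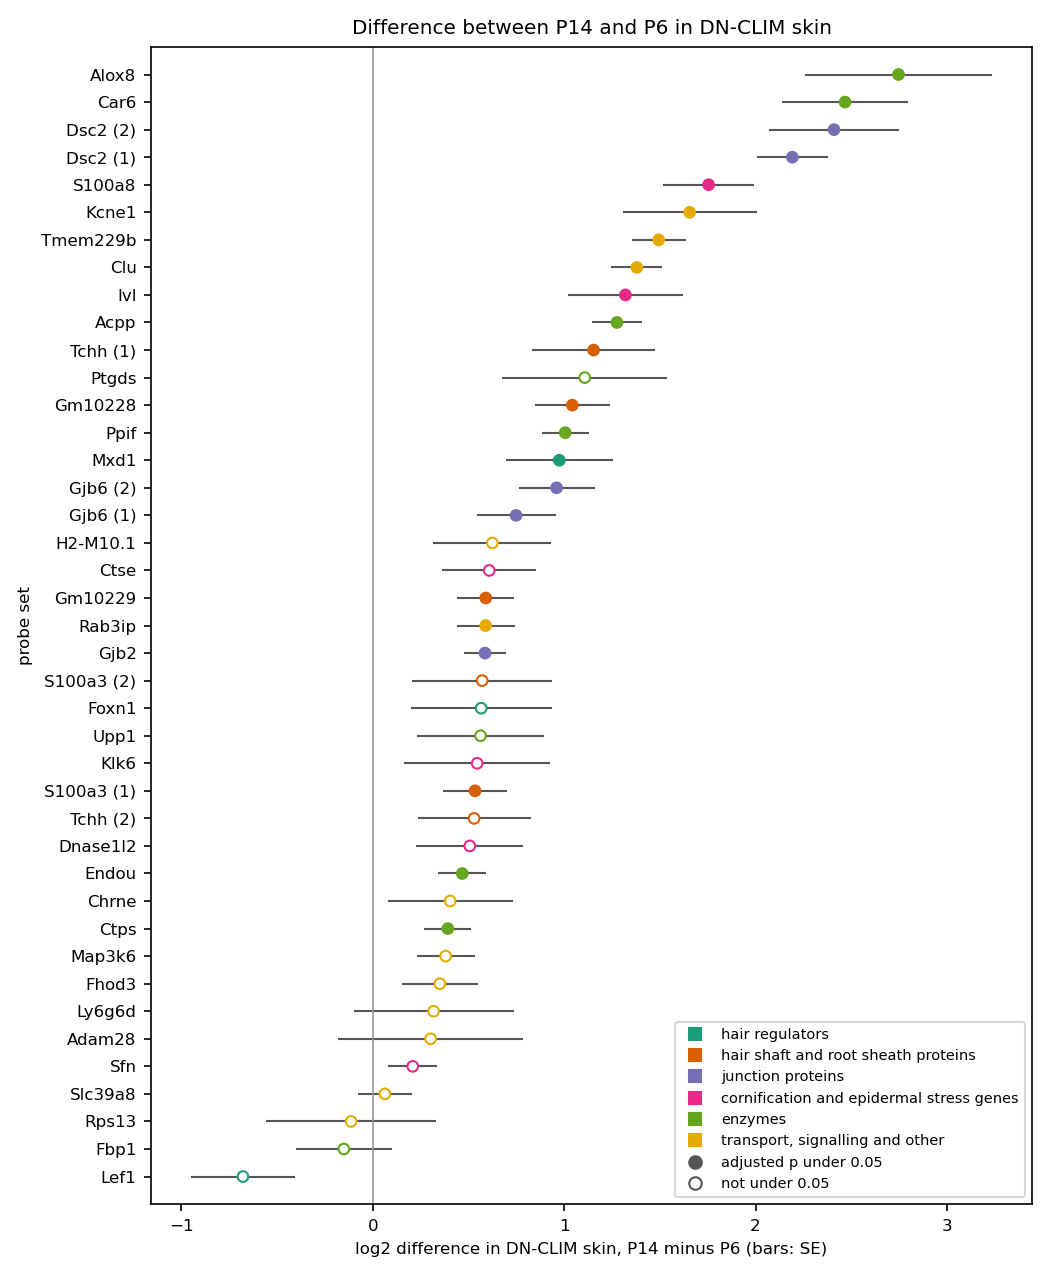
Difference in log2 signal between P14 and P6 in DN-CLIM skin for the 41 probe sets, with SE as bars and colour by role. Filled points passed (22, all higher), open points did not (19), and Alox8 stands at the top with 2.75 and Lef1 at the bottom with -0.68.

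Set against P6, 40 of the 41 probe sets were lower at P23 in DN-CLIM skin, where 16.6% of all probe sets were, and the median was -2.53. All arrays at P23 lay below all at P6 for 37 of the 41, and for 17% of all probe sets. Fbp1 fell by 8.14 (SE 0.25) and S100a3 probe set 2 by 8.36 (SE 0.36). S100a8 was the exception: it read 7.13, 8.60 and 8.45 at P23, against 8.26, 8.34, 8.10, 8.58 and 8.71 at P6. These groups overlap, with a difference of -0.34 (SE 0.24, adjusted p = 0.287) that became 0.13 without DN-CLIM P23 array 1. The fall of Klk6 by 1.22 (SE 0.38, adjusted p = 0.015) did not pass without that array (-0.73, adjusted p = 0.176), with P6 arrays 4 and 5 alone (-0.61, adjusted p = 0.347) or in a fit of these 2 groups alone (adjusted p = 0.069).

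**Figure D5:**
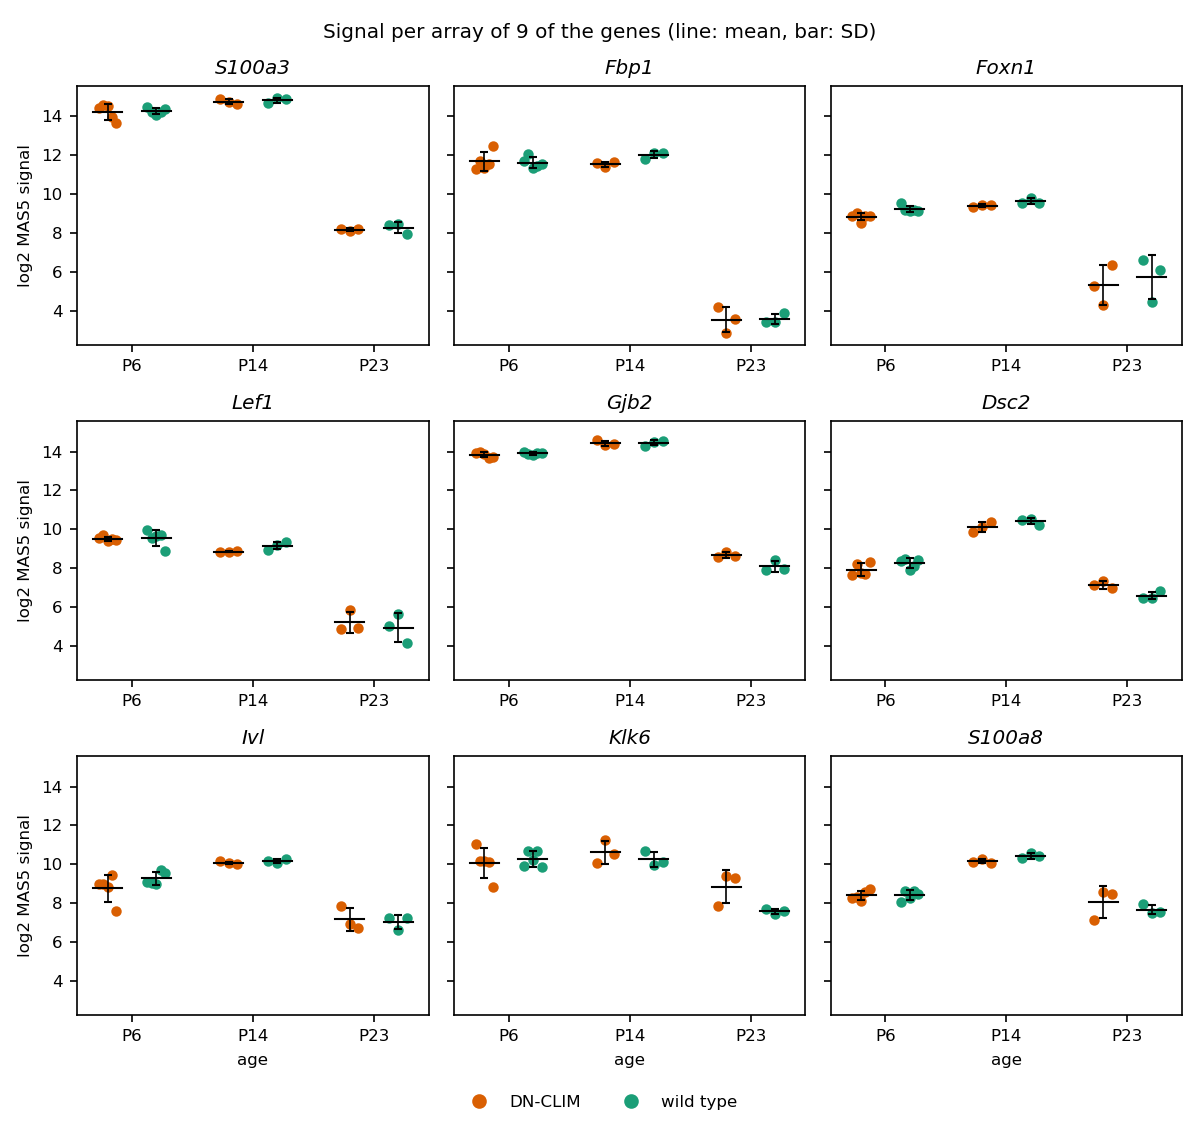
Log2 MAS5 signal per array of 9 of the genes at P6, P14 and P23, DN-CLIM (orange) left of wild type (green), with the mean as a line and the SD as a bar (5 arrays per group at P6, 3 at P14 and P23). S100a3 is shown by probe set 1 and Dsc2 by probe set 1; S100a8 at P23 overlaps its P6 values in DN-CLIM skin, while Gjb2 does not.

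At P6, whose arrays the rule does not use, none of the 41 probe sets passed limma's test between DN-CLIM and wild-type skin. Over all 12422 probe sets 5 did (0.0403%), 2 higher (0.0161%) and 3 lower (0.0242%), and at an unadjusted p under 0.05 the counts were 2 of the 41 and 931 of all. Over all 12422 probe sets the median difference was -0.02, with 6628 below 0. That of the 41 was -0.07, with 27 below 0. The smallest p was that of Upp1, which read 7.55, 7.86, 8.44, 6.64 and 7.64 in DN-CLIM skin, against 8.68, 7.98, 8.22, 8.47 and 8.44 in wild-type skin. The ranges overlap, and the difference of -0.73 (SE 0.29) had an adjusted p of 0.607. Gm10228 read 12.26, 12.79, 12.54, 12.41 and 12.84 in DN-CLIM skin, against 12.94, 13.44, 12.46, 12.91 and 13.00 in wild-type skin, a difference of -0.38 (SE 0.17, adjusted p = 0.648). Dsc2 probe set 1 read 7.67, 8.21, 7.75, 7.68 and 8.32 in DN-CLIM skin, against 8.37, 8.48, 7.90, 8.08 and 8.44 in wild-type skin, a difference of -0.33 (SE 0.16, adjusted p = 0.664). These groups overlap too.

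Foxn1 was the 1 probe set of the 41 on which the P6 groups did not overlap, with every DN-CLIM array lower, a pattern found on 0.475% of all probe sets. It read 8.87, 9.04, 8.53, 8.89 and 8.86 in DN-CLIM skin, against 9.53, 9.21, 9.13, 9.19 and 9.13 in wild-type skin. The difference of -0.40 (SE 0.32) had an adjusted p of 0.806 in the fit across all arrays. That SE rests on a spread shared by the groups of all ages. The SD of Foxn1 was 0.19 in DN-CLIM and 0.16 in wild-type skin at P6, against 1.04 and 1.13 at P23. In a fit of the P6 groups alone, which leaves out the later ages, none of the 41 passed, Foxn1 included. All 5 junction probe sets, which are of 3 genes, had estimates below 0 at P6, from -0.58 to -0.07, and none passed. Of all 12422 probe sets, 6628 had estimates below 0.

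At P14 and P23 the wild-type arrays had chosen the genes, so the genotype differences there are given as values without a test. The median of DN-CLIM minus wild type was -0.22 at P14, with 35 of 41 below 0, and 0.06 at P23, with 24 of 41 above 0. Over all 12422 probe sets it was 0.04 at P14, with 5533 below 0, and 0.004 at P23, with 6287 above 0. Choosing genes high in wild-type skin at P14 and low at P23 favours such signs by itself, and its part was not tested. Upp1 stood lowest at P14, with 7.54, 8.01 and 9.01 in DN-CLIM skin, against 9.04, 9.67 and 9.42 in wild-type skin. At P23 the 5 junction probe sets, of 3 genes, were all above 0, from 0.33 to 1.18. Gjb2 read 8.55, 8.83 and 8.60 in DN-CLIM skin at P23, against 7.90, 8.40 and 7.97 in wild-type skin. Dsc2 probe set 1 read 7.12, 7.35 and 6.95, against 6.48, 6.46 and 6.80. The genotypes overlapped on both Gjb6 probe sets, with 4.63 to 5.79 against 4.39 to 5.25 on probe set 1 and 5.59 to 5.93 against 4.91 to 5.76 on probe set 2. They also overlapped on Dsc2 probe set 2, with 3.86 to 5.32 against 2.78 to 4.37. Klk6 had the highest difference, 1.28, with 7.87, 9.40 and 9.29 in DN-CLIM skin, against 7.68, 7.44 and 7.59 in wild-type skin. Adam28 had the lowest, -1.12, with 6.27, 5.93 and 6.00 in DN-CLIM skin, against 7.15, 7.46 and 6.96 in wild-type skin.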

How the data were processed

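Total RNA of mouse back skin was hybridised to 22 arrays. The authors deposited an intensity for each probe set, a MAS5 signal on a linear scale per the submitters' processing notes, with a trimmed mean (2% cut at each end) of 499.9 on every array; scanner files were not used here. Log2 of these intensities was taken without a pseudocount. Of 12488 probe sets, 66 controls were left out and 12422 tested; 10833 have 1 gene, 396 several and 1193 none in the platform annotation, and names were checked through RefSeq (GRCm38.p6). limma 3.58.1 in R 4.3.3 fitted 1 mean per group over all 22 arrays, with a variance trend and Benjamini-Hochberg adjustment over all 12422, and a threshold of 0.05; it was tested on simulated data. A floor on low signal would have left 36 of the 41 probe sets. The 41 probe sets, the gene lists and the roles were chosen with earlier results of these data known; the keratin-associated and ribosomal lists, the roles and the promoter motifs were set after the genes were seen. In lists each gene counts once, by its brightest probe set. Per-array values are given by rule for the probe set with the largest P23 fall in each role, the 3 largest and 3 smallest P14 minus P6 differences, and the 3 smallest p at P6; others named with values per array were chosen after their values were seen. Arrays are treated as replicates of a group. Replicate numbers were not taken to pair the arrays. Alternatives were quantile normalization, 50 added to each signal, a floor on mean signal, no trend, array weights, a replicate block, fits of the groups compared, subsets of P6 arrays and leaving out each array.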

Additional observations from a re-analysis of the deposited data

Results flagged for a closer look

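Groups of 5 arrays exist at P6 only, so 82 groups (41 probe sets, 2 genotypes) were looked at for an array standing apart from the other 4, and 6 such arrays were found; chance gives about 1 in 20 groups. In DN-CLIM skin, array 5 was low for S100a3 probe set 2 (12.975, nearest 13.369) and for Endou (9.4463, nearest 9.9097), array 1 was low for Chrne (8.823, nearest 9.9508), and array 2 was high for Alox8 (7.1077, nearest 6.3532). In wild-type skin, array 1 was high for Foxn1 (9.5264, nearest 9.2072) and array 5 was low for Gjb6 probe set 2 (7.8526, nearest 8.1915).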

How the results depend on the processing

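The count of the 41 probe sets lower at P23 than at P14 in DN-CLIM skin stayed at 40 to 41 with each array left out (all probe sets called: 3700 to 4055), that of rises between P6 and P14 at 16 to 23 (1079 to 2027 called), and that lower at P23 than at P6 at 39 to 40 (3564 to 4609 called). Between P6 and P14, 1 probe set was called lower with 50 added to each signal and 1 in the fit of the groups compared, where 851 of all probe sets were called in place of 1871. Without DN-CLIM P14 array 2, 1079 were called. Between genotypes at P6, 5 probe sets were called in all, 2 with the floor on signal, 3 in the fit of the groups compared, 15 with P6 arrays 4 and 5, and 4 to 10 with each array left out, 9 without DN-CLIM array 1 and 10 without DN-CLIM array 4, and none of the 41 in any of these. The choice gave 65 probe sets with a fall of at least 2 and 38 to 44 with each wild-type array left out. S100a8 between P6 and P23 turned to 0.13 without DN-CLIM P23 array 1 (-0.61 to 0.13 with each array left out). Fbp1 between P6 and P14 turned to 0.0485 without DN-CLIM P6 array 5 (-0.25 to 0.0485 with each left out) and to 0.0795 with P6 arrays 1 to 3. Rps13 turned to 0.08 without DN-CLIM P6 array 2, 0.20 without DN-CLIM P14 array 1 (-0.54 to 0.20 with each left out), 0.0009 with P6 arrays 1 to 3 and 0.0928 with the replicate block. Labels give no pairing behind the replicate numbers. Deviations of same-numbered DN-CLIM and wild-type arrays correlated at -0.00457 to 0.185 at P6, -0.047 to 0.0295 at P14 and 0.0563 to 0.249 at P23, and those of other pairs at -0.268 to 0.202, -0.0419 to 0.0703 and -0.177 to 0.0509 at these ages. At P23 every array correlated best with its own number, a hint from the data and not the design. The replicate block gave 41, 22 and 40 calls for the 3 age comparisons and 0 at P6. Where a value turned, the cause was not tested. Near the lower end of the scale at P23, the size of a fold is uncertain.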
